A study of Arabidopsis thaliana with 3 samples.

Results

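The ASK (ARABIDOPSIS SKP1-LIKE) genes described here are 10 members of the SKP1 family of Arabidopsis thaliana, namely ASK1, ASK2, ASK5, ASK7, ASK8, ASK9, ASK10, ASK13, ASK14 and ASK19, taken by locus identifier from a comparison table of 19777 genes. Of the 10, 6 have a row in that table. ASK7 (AT3G21840), ASK8 (AT3G21830), ASK9 (AT3G21850) and ASK10 (AT3G21860) have none and were not measured. The members were chosen with the fold changes of this same comparison known, so those values and calls are given as a description and support nothing beyond it.

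Inflorescence meristems were collected together with flower buds from 3 independent lines, and 1 poly(A) library was made per line. All plants are sep1 sep2 sep3 triple mutants, and the transgenic lines also express SEP3Δtet, a splice variant of the MADS-domain transcription factor SEPALLATA3 named for its impaired tetramer formation. The reference group of the comparison is the same triple mutant without the transgene. Libraries of that group were not analysed here. The sources used here give neither their number nor the promoter of the transgene. Bud stages start at 10 in every label and end at 11 for line 1, 12 for line 2 and 13 for line 3, whereas the design text has 10 to 11 throughout. Plants were grown in long days, and no age is given. The table holds 1 value per gene for the whole comparison. Levels in single lines, their spread and the sequencing depth are therefore unknown.

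SKP1 proteins are the adaptor of SCF ubiquitin ligases. An SCF complex consists of a cullin scaffold, the RING protein RBX1, the SKP1 adaptor and an exchangeable F-box protein, which SKP1 holds and which recognises the substrate. In Arabidopsis the SKP1 family has expanded, and ASK1 and ASK2 are its best studied genes: ask1 mutants fail in male meiosis and have altered petals and stamens, and loss of both genes together is lethal to the embryo or seedling. ASK1 also works with the F-box protein UFO in activating the petal and stamen identity genes.

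The coding ends of the 6 measured members are shown because they carry the part of the protein fold that meets the F-box, and because ASK19 differs there. Sequences run 5′ to 3′ from the coding strand of the RefSeq TAIR10.1 genome up to the stop codon, and capitals mark the 12 bases that open with the tryptophan codon TGG near the end of each gene.
ASK1, chr1:28517404-28517454, plus strand: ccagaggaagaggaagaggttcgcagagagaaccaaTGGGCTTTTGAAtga
ASK2, chr5:16854495-16854545, minus strand: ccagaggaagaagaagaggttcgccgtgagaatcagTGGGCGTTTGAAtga
ASK5, chr3:22164844-22164894, minus strand: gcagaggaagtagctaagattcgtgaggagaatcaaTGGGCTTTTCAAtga
ASK13, chr3:22163094-22163144, minus strand: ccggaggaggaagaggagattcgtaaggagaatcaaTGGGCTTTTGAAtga
ASK14, chr2:961721-961771, plus strand: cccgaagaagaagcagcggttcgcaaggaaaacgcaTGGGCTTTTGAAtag
ASK19, chr2:960167-960247, plus strand: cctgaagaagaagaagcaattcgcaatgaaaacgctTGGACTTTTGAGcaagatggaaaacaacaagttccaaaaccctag
In 5 of the 6 the stop codon follows the capitals directly. ASK19 continues for 33 bases, the stop codon included, and its coding sequence of 603 bases is the longest of the 6, the others having 450 to 516.

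The measured members fell into 2 kinds. ASK5, ASK13, ASK14 and ASK19 were 15.0-fold to 33.5-fold higher in the SEP3Δtet lines in the authors' deposited table, whereas ASK1 (1.09-fold) and ASK2 (0.979-fold), by far the most abundant of the 6, were not called. No measured member was called lower. A call here is a deposited adjusted p under 0.05 from edgeR's quasi-likelihood test with Benjamini-Hochberg adjustment over all genes, with the direction given by the log2 fold change. Of the 6 measured members in the authors' deposited table, 4 were called higher, beside 11.6% of all genes, and 0 of 6 were called lower, beside 5.88% of all genes. At an unadjusted p of 0.05 the same 4 of 6 passed in the authors' deposited table, beside 5870 of all 19777 genes. The median log2 fold change of the 6 was 4.10 in the authors' deposited table, against -0.00094 over all genes. Because the members were selected on this comparison, nothing is read from that contrast. In whole meristems and buds, more cells of a type and more RNA per cell cannot be told apart.

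ASK1 (AT1G75950), the adaptor of most well-studied Arabidopsis SCF complexes, averaged 8.27 log2 CPM over all libraries, and its log2 fold change of 0.13 had an adjusted p of 0.455 in the authors' deposited table by edgeR's test. ASK2 (AT5G42190), its partly redundant partner, averaged 6.56 log2 CPM with a log2 fold change of -0.03 (adjusted p = 0.872 by edgeR's test) in the authors' deposited table. Neither passed the test, and the table gives no interval from which an equal level could be concluded. The log2 fold change divided by the square root of F, a rough stand-in for its standard error that the authors did not deposit, came to 0.099 for ASK1 and 0.095 for ASK2. Both genes have 2 coding exons in the TAIR10.1 annotation, ASK1 at chr1:28516519-28517896 on the plus strand and ASK2 at chr5:16854191-16855741 on the minus strand.

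ASK5 and ASK13 lie side by side on the minus strand of chromosome 3, 1028 bp apart, and each has a single coding exon. ASK5 (AT3G60020, chr3:22164630-22165376) had a log2 fold change of 4.29, a 19.6-fold increase, at an average of 3.03 log2 CPM in the authors' deposited table (F = 269, adjusted p = 7.4e-07 by edgeR's test). For ASK13 (AT3G60010, chr3:22162914-22163601) the authors' deposited table gives a log2 fold change of 3.91, or 15.0-fold, at 3.16 log2 CPM (F = 205, adjusted p = 1.7e-06 by edgeR's test). These neighbours therefore had nearly the same average abundance and the smaller increases of the 4. The stand-in for the standard error was 0.26 for ASK5 and 0.27 for ASK13 on the log2 scale.

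ASK19 and ASK14 form a second pair, in head-to-tail order on the plus strand of chromosome 2 with 1060 bp between them, again with a single coding exon each. The log2 fold change of ASK14 (AT2G03170, chr2:961308-961771) was 5.07, or 33.5-fold, at 2.65 log2 CPM in the authors' deposited table (F = 104, adjusted p = 2.8e-05 by edgeR's test). ASK19 (AT2G03160, chr2:959645-960247) stood at 5.04, or 32.8-fold, at 1.83 log2 CPM in the authors' deposited table (F = 129, adjusted p = 9.4e-06 by edgeR's test). The pair had the larger increases and the lower average log2 CPM, without regard to gene length. Its stand-in for the standard error was wider, 0.50 for ASK14 and 0.44 for ASK19. Whether the 2 pairs differ from each other in their increase was not tested.

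**Figure D1:**
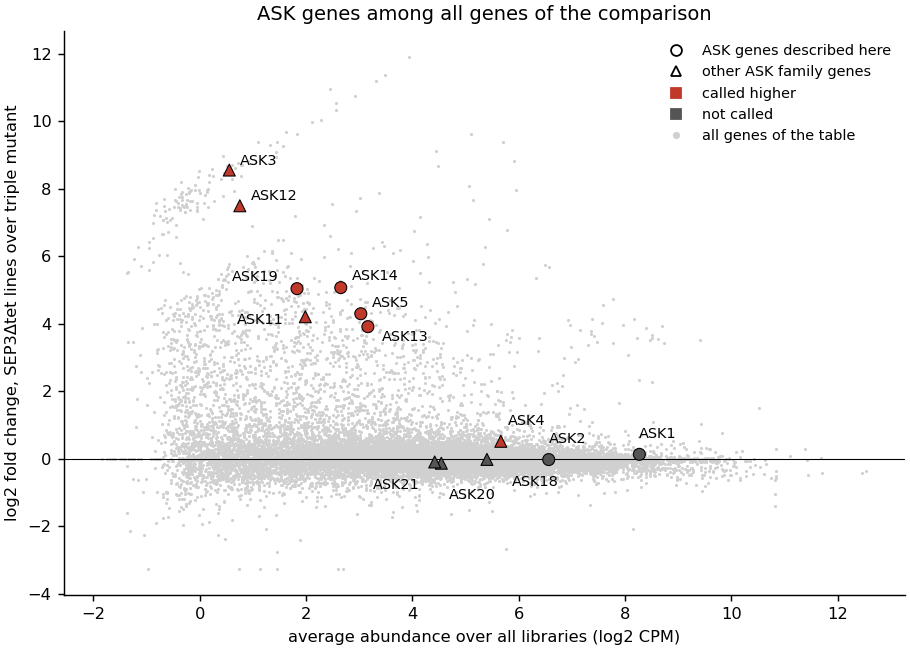
Log2 fold change of the SEP3Δtet lines over the triple mutant (vertical axis) against average log2 CPM over all libraries (horizontal axis) for the 19777 genes of the authors' deposited table; circles are the 6 measured members, triangles the 7 other measured ASK family genes, red those called higher and dark grey those not called. ASK5, ASK13, ASK14 and ASK19 lie between 3.91 and 5.07 at 1.83 to 3.16 log2 CPM, and ASK1 and ASK2 lie near 0 at 8.27 and 6.56.

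Low abundance set the 4 raised members apart from ASK1 and ASK2, and abundance alone goes with the share of calls. Among the 2531 genes of the authors' deposited table between 1.83 and 3.16 log2 CPM, the range of the 4, 18.1% were called higher and 3.12% lower, with a median log2 fold change of 0.11. Of the 1831 genes between 6.56 and 8.27 log2 CPM, the range of ASK1 and ASK2, 4.42% were called higher and 10.8% were lower in the authors' deposited table. In the ranking of all 19777 log2 fold changes, ASK14 stood at 230 from the top, ASK19 at 235, ASK5 at 379 and ASK13 at 501.

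To compare levels between genes, the average log2 CPM was expressed per kilobase of annotated exon. On that scale ASK1 averaged 8.10 and ASK2 6.50 log2 CPM per kb, from the authors' deposited table and TAIR10.1 exon lengths. ASK14 followed at 3.76, ASK13 at 3.70, ASK5 at 3.45 and ASK19 at 2.56 log2 CPM per kb. ASK19 has no annotated untranslated region, and ASK14 has only 464 exon bases for 450 coding bases. Exon lengths of these 2 genes may therefore be short and their levels per kb too high. All the levels given are averages over both genotypes with no spread over libraries, so whether neighbours in this order differ is unknown.

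The 11 other ASK family genes were listed from general knowledge of the family. Of these, 7 were measured: 4 were called higher, 0 lower and 3 not called in the authors' deposited table, beside 11.6% and 5.88% of all genes, with a median log2 fold change of 0.51. ASK3 (AT2G25700) had a log2 fold change of 8.55 and ASK12 (AT4G34470) one of 7.49 in the authors' deposited table, at only 0.56 and 0.76 log2 CPM. ASK3 belongs to 114 genes whose log2 fold change exceeds their average log2 CPM by more than 7. So few reads of ASK3 then remain in one genotype that its fitted fold depends on the prior count and is no bound. ASK12 falls just short of that chosen cut, at 6.74, so its fitted fold may depend on the prior count too. ASK11 (AT4G34210) stood at 4.20 (adjusted p = 4.2e-06 by edgeR's test) in the authors' deposited table. ASK4 (AT1G20140), the close copy of ASK3, was called higher too, at a log2 fold change of 0.51 and 5.66 log2 CPM (adjusted p = 0.0076 by edgeR's test, in the authors' deposited table). ASK18 (log2 fold change -0.03), ASK20 (-0.14) and ASK21 (-0.10) were not called in the authors' deposited table. ASK6, ASK15, ASK16 and ASK17 have no row.

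Over the whole family, 13 of 21 genes were measured, of which 8 were called higher and 0 were lower in the authors' deposited table, beside 11.6% and 5.88% of all genes. Of the 13, 7 were called at least 2-fold higher, beside 1562 of all 19777 genes. The 7 averaged 0.56 to 3.16 log2 CPM in the authors' deposited table, and the other 6 averaged 4.42 to 8.27, so the groups do not overlap in abundance. That abundance is an average over both genotypes, so it is not independent of the fold change used for the split. Log2 fold changes of the groups did not overlap either, because a minimum of 2-fold defined the split. Of the 7, ASK3 alone has more than 1 coding exon (2), whereas of the other 6 ASK18 alone has a single one and the rest have 2 to 9. Absence of a row for the 8 others says only that they were not in the table, whose filter the sources do not describe.

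Reads shared between near-identical genes could blur such values, so the transcripts were compared. Among the 15 pairs of measured members, aligned coding bases were 64.7% to 81.1% identical, and the longest run shared by 2 transcripts was 26 bases, far below the read length of 150 bp. The closest pair was ASK14 and ASK19 (81.1%), and ASK1 and ASK2 shared 77.8% of aligned coding bases. Across all 21 genes 1 pair reached a shared run of 150 bases or more: ASK11 and ASK12, 99.3% identical with a run of 183 bases. Their values are uncertain, since the sources do not say how reads shared between genes were treated. ASK3 and ASK4 share a run of 60 bases. In the cluster of members without a row, ASK7, ASK8, ASK9 and ASK10, shared runs were 57 to 84 bases long.

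The windows upstream of the 4 raised members are shown beside that of ASK1 because the 4 were all called higher. Each covers the 200 bases before the annotated gene start in TAIR10.1, 5′ to 3′ on the gene's strand; for ASK19 that start is the start codon, since no leader is annotated. Capitals mark CCGACTC and TATAAA on either strand, which overlap as TTTATAAA in ASK14.
ASK5, chr3:22165377-22165576, minus strand: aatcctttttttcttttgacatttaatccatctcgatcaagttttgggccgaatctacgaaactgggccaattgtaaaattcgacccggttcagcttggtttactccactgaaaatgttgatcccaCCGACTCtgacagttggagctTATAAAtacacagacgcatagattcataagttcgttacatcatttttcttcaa
ASK13, chr3:22163602-22163801, minus strand: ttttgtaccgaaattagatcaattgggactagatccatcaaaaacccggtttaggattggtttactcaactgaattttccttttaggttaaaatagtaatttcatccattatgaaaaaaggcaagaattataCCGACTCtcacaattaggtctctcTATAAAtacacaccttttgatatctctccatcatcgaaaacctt
ASK14, chr2:961108-961307, plus strand: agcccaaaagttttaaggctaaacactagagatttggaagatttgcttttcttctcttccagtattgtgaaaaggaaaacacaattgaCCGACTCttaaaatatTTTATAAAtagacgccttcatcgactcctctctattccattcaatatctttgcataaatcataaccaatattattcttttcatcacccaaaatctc
ASK19, chr2:959445-959644, plus strand: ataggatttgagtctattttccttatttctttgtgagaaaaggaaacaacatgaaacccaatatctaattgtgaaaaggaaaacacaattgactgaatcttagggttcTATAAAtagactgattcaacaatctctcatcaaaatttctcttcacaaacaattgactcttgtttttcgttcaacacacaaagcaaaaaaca
ASK1, chr1:28516319-28516518, plus strand: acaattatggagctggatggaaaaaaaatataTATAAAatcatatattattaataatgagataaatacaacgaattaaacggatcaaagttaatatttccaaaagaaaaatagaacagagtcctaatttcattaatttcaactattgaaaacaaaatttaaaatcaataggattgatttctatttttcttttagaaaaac

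CCGACTC, a string noticed by eye in these windows, opens 16 to 24 bases before TATAAA on either strand in ASK5, ASK13 and ASK14. The distance of 16, in ASK14, runs to the match on the reverse strand. CCGACTC is absent from the windows of ASK19, ASK1 and ASK2. It holds CCGAC, the core of the dehydration-responsive element, which was found in 10.1% of the upstream windows of all 27443 protein-coding genes. CCGACTC was found in 0.678% of those windows. Within the family it stood in 5 of the 7 genes called at least 2-fold higher (ASK5, ASK11, ASK12, ASK13 and ASK14), in 0 of the 6 other measured genes and in 2 of the 8 without a row. That count includes ASK5, ASK13 and ASK14, in whose windows the string was noticed, so it is a description and supports nothing beyond it. The family's genes are copies of one another, so their windows are not independent. Of 138 genes outside the family that hold it, 13.0% were called higher and 7.97% were lower in the authors' deposited table, against 11.6% and 5.99% of the 19142 without it. Where TATAAA stood in the same window as CCGACTC, at any distance, 9 of 51 genes outside the family were called higher (17.6%) and 2 were called lower (3.92%) in the authors' deposited table. Whether these shares differ was not tested.

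Motifs with a known link to the design were counted in the same windows, on both strands. The CArG box, the site of MADS-domain proteins, was searched only as CC(A/T)6GG, and other forms were not counted. In that form it was in 0 of the 21 family windows and in 2.12% of all windows. The E-box CANNTG is the site of bHLH proteins such as the tapetum regulator AMS. It was in 5 of the 6 measured members, in 11 of the 21 family windows and in 47.3% of all windows. The G-box CACGTG, which is also an E-box, was in 0 of the 6, in 1 of the 21 and in 5.64% of all windows. TATAAA was in 5 of the 6, ASK2 being the exception, in 14 of the 21 and in 41.0% of all windows. A match is no evidence of a site, and its absence from 200 bases says nothing of binding elsewhere.

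Genes around the members were then compared, 5 annotated genes on each side of each cluster and 1 gene lying between members of the ASK7 to ASK10 cluster. Of these 51 neighbours 27 were measured, 3 were called higher (11.1%) and 0 were lower in the authors' deposited table, near the 11.6% of all genes for higher calls, with a median log2 fold change of -0.07. Around ASK13 and ASK5 the 4 measured neighbours had log2 fold changes of -0.17 to -0.0033 in the authors' deposited table and none was called. Around ASK19 and ASK14, 1 of 6 measured neighbours was called higher in the authors' deposited table. It is AT2G03200, an aspartyl protease family gene, with a log2 fold change of 4.13 (adjusted p = 0.0074 by edgeR's test, in the authors' deposited table). AT2G03150, which ends just before ASK19, stood at 0.01 in the authors' deposited table. The third family gene of that stretch, ASK16 (AT2G03190), was not measured. Near ASK1, itself not called, AT1G75930 (log2 fold change 10.05) and AT1G75940 (9.38) had no call in the authors' deposited table, and AT1G75930 too is among the 114 genes whose fitted fold depends on the prior count. There the GDSL lipase gene AT1G75920 had a log2 fold change of 3.91 (adjusted p = 0.0075 by edgeR's test), and near ASK2 the glutathione S-transferase gene AT5G42150 had one of 0.31 (adjusted p = 0.045), both in the authors' deposited table. Of the 5 measured neighbours of the ASK7 to ASK10 cluster 0 were called, with log2 fold changes of -0.56 to -0.03 in the authors' deposited table.

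**Figure D2:**
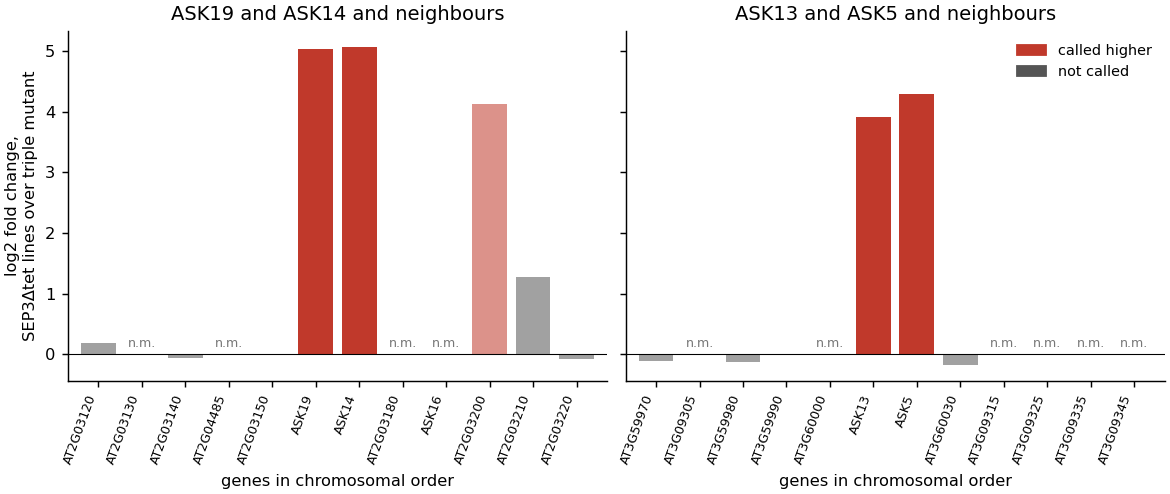
Bars give the log2 fold change of ASK19 and ASK14 (left) and of ASK13 and ASK5 (right) with the 5 annotated genes on each side, in chromosomal order without distances; red bars were called higher, grey bars were not called, pale bars are neighbours, bars of AT2G03150 and AT3G59990 are too near 0 to be seen, and n.m. marks genes with no row. The 4 ASK genes stand at 3.91 to 5.07, and of their measured neighbours AT2G03200 alone was called, at 4.13.

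The core partners of the ASK proteins were set beside them. CUL1 (AT4G02570), the main SCF scaffold, had a log2 fold change of 0.08 at 7.88 log2 CPM (adjusted p = 0.581 by edgeR's test) in the authors' deposited table. RBX1A (AT5G20570), the RING subunit, stood at 0.16 (adjusted p = 0.228 by edgeR's test) in the authors' deposited table. CUL2 (AT1G02980), a close relative of CUL1 in Arabidopsis, was called higher at a log2 fold change of 3.73, or 13.3-fold, and 4.04 log2 CPM (F = 234, adjusted p = 1.3e-06 by edgeR's test, in the authors' deposited table). So the abundant scaffold and RING genes, like ASK1 and ASK2, were not called, and 1 cullin gene of lower abundance was. In all, 1 of 6 measured core partners was called higher and 0 were lower in the authors' deposited table, beside 11.6% and 5.88% of all genes. The median log2 fold change of these 6 was 0.22. CAND1 (-0.03), SGT1A (0.29) and SGT1B (0.27), which exchange F-box modules or act as SKP1-binding co-chaperones, were not called in the authors' deposited table, and RBX1B has no row.

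Beside 11.6% of all genes, a further 3 rows described as cullin family proteins, searched for after CUL2 had been seen, were all called higher. Their log2 fold changes in the authors' deposited table were 6.47 for AT1G43140, 5.03 for AT1G59790 and 3.62 for AT4G12100. All 3 were of low abundance in the authors' deposited table, at 1.48, 0.49 and 0.71 log2 CPM. Their proteins have not been placed in a complex here.

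Regulators of cullin ligases and core genes of other cullin ligases were examined next. The COP9 signalosome removes the ubiquitin-like RUB modifier from cullins. Of its 10 genes, 1 was called higher and 0 were lower in the authors' deposited table, beside 11.6% and 5.88% of all genes. That gene was CSN6A, with a log2 fold change of 0.37 (adjusted p = 0.015 by edgeR's test) in the authors' deposited table. All 10 log2 fold changes were positive, from 0.04 to 0.37, beside 9795 positive of all 19777 in the authors' deposited table. Of the 10, 6 had an unadjusted p under 0.05, beside 5870 of all 19777 genes. Of 6 RUB conjugation genes 0 were called by edgeR's test, 1 had an unadjusted p under 0.05, and the log2 fold changes ran from -0.04 to 0.24 in the authors' deposited table. Among 5 core genes of CUL3 and CUL4 ligases, 0 were called by edgeR's test and 0 had an unadjusted p under 0.05 in the authors' deposited table. Their median was -0.02.

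**Figure D3:**
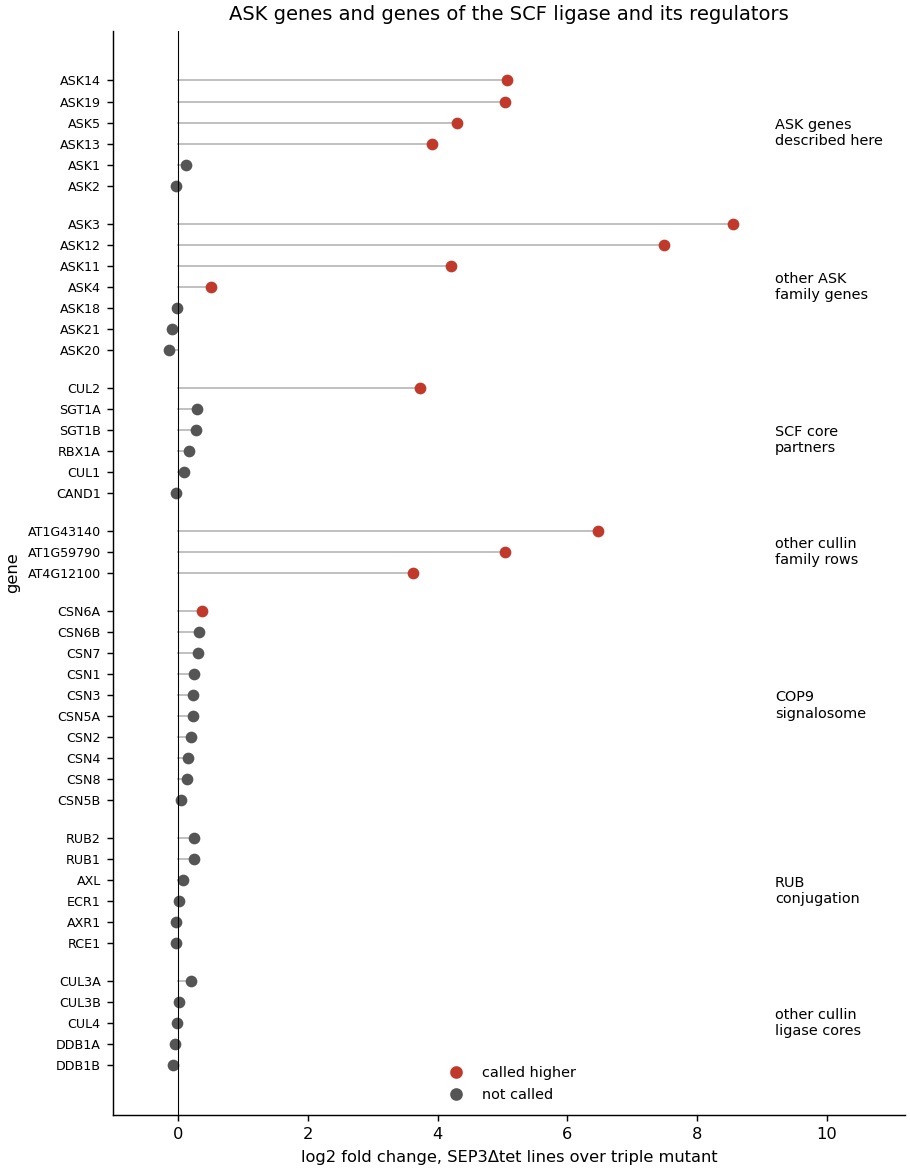
Log2 fold change of the SEP3Δtet lines over the triple mutant for each measured ASK gene and for genes of the SCF ligase and its regulators, from the authors' deposited table; red points were called higher and grey points were not called. CUL2, the 3 further cullin family rows and every ASK gene called higher except ASK4 (0.51) lie above 3.5, and CUL1, RBX1A, ASK1 and ASK2 lie near 0.

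F-box proteins are the direct partners of SKP1. The 229 rows with F-box in their description or symbol include 87 called higher (38.0%), 3 called lower (1.31%) and 139 not called in the authors' deposited table, beside 11.6% and 5.88% of all genes. Matching by text is incomplete, so these shares hold for the matched rows alone. It misses known F-box genes such as COI1, AFB1 and FKF1 and the rows described as SKP1-interacting, most of them not called. Of the 87, 56 averaged under 1 log2 CPM. Among genes of at least 1 log2 CPM, the authors' deposited table gives higher calls to 31 of 155 F-box rows (20.0%), against 9.90% of all genes. Under 1 log2 CPM the share was 75.7% of 74 F-box rows and 26.7% of all genes in the authors' deposited table. The F-box rows had a median of 2.48 log2 CPM, against 4.46 over all genes, and a median log2 fold change of 0.28 in the authors' deposited table. The largest increases among called F-box rows of at least 1 log2 CPM were those of AT2G32470 (log2 fold change 7.55), AT1G30780 (6.35), AT2G16450 (5.95) and AT3G16580 (5.58) in the authors' deposited table. The largest decreases were -0.49 for AT3G58820 and -0.46 for AT4G35930 in the authors' deposited table. AT2G32470 and AT1G30780 are among 11 rows described as F-box associated ubiquitination effector family protein, which does not state that the protein has an F-box. Rows described as F-box and associated interaction domains-containing protein gave 30 higher calls of 50, with a median of 3.17, in the authors' deposited table. F-box/RNI-like superfamily rows gave 12 of 46, with a median of 0.13. The former rows more often averaged under 1 log2 CPM, where higher calls were more frequent. Counts and medians of these 2 descriptions were not split by abundance, so nothing is read from their contrast.

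F-box genes of known hormone, light or cell cycle function, only some of which were matched by description above, showed few calls. Of 20 measured, 1 was called higher, 1 lower and 18 not called in the authors' deposited table, beside 11.6% and 5.88% of all genes. The median log2 fold change of the 20 was -0.11. COI1, the jasmonate receptor, was higher (0.36, adjusted p = 0.024 by edgeR's test) and AFB1, an auxin receptor, lower (-0.37, adjusted p = 0.028) in the authors' deposited table. UFO, the floral F-box gene that works with ASK1, had a log2 fold change of -0.42 at 1.44 log2 CPM and was not called (adjusted p = 0.248 by edgeR's test, in the authors' deposited table). FKF1 had a log2 fold change of 1.87 without a call (adjusted p = 0.390 by edgeR's test) in the authors' deposited table. None of 7 rows described as SKP1-interacting, chosen after the values were seen, was called by edgeR's test. Of the 7, 0 had an unadjusted p under 0.05, beside 5870 of all 19777 genes. Log2 fold changes of the 7 ran from -0.10 to 0.18 in the authors' deposited table.

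**Figure D4:**
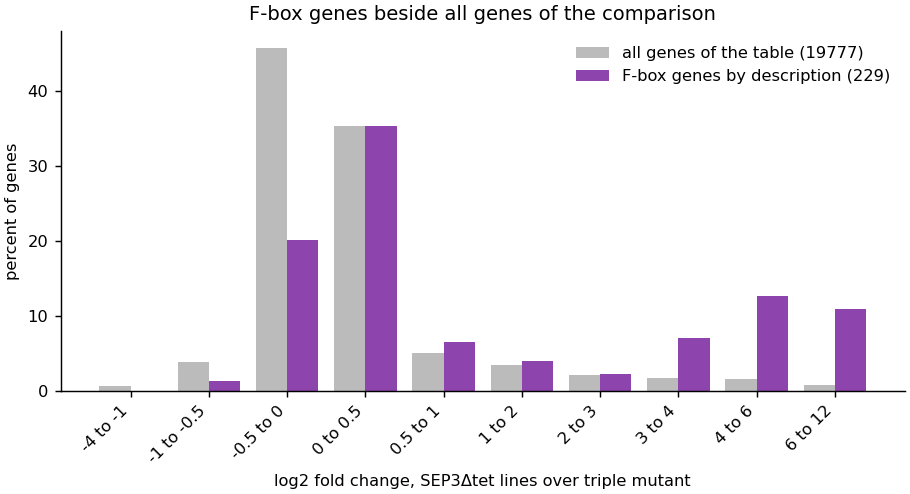
Percent of genes (vertical axis) in each range of log2 fold change (horizontal axis, ranges of unequal width) for all 19777 genes of the authors' deposited table and for the 229 F-box rows. Above a log2 fold change of 6 lie 10.9% of the F-box rows and 0.769% of all genes. Most of these 25 F-box rows have a log2 fold change exceeding their average log2 CPM by more than 7. Their fitted folds therefore depend on the prior count.

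Anther genes moved in the same direction as the raised ASK genes, and the part of anther tissue in the ASK values was not tested. In the authors' deposited table all 15 anther and tapetum markers passed as higher, beside 11.6% of all genes. Log2 fold changes of the 15 ran from 2.32 to 4.03, with a median of 3.56. Examples are AMS (log2 fold change 3.47), the sporopollenin enzyme gene TKPR1 (3.58) and BHLH89 (2.63) in the authors' deposited table. Of 13 meiosis markers 8 were called higher, 0 lower and 5 not called in the authors' deposited table, beside 11.6% and 5.88% of all genes. The median of the 13 was 0.70. The meiosis genes ASY1 (1.80), MMD1 (2.73) and SYN1 (2.07) were among the 8 called higher in the authors' deposited table. Of 9 mature pollen markers 4 were measured and 1 called higher in the authors' deposited table, the pollen actin gene ACT12 (9.31, at 1.33 log2 CPM), whose fitted fold likewise depends on the prior count. Transcripts of SEP3, which the transgene encodes, were 4.82-fold more abundant in the lines labelled SEP3Δtet (adjusted p = 1.1e-04 by edgeR's test, in the authors' deposited table).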

How the data were processed

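Poly(A) RNA of 3 SEP3Δtet lines in the sep1 sep2 sep3 background was sequenced as paired reads of 150 bp, per the labels and series text. The tools named are STAR, featureCounts and edgeR, with the TAIR10 build, per the submitters' processing notes. Their versions, the filters, the model and the treatment of strand and shared reads are not stated in the sources used here. The authors deposited 1 table. Per the file headers it holds a log2 fold change and an average log2 CPM per gene. Per the file headers it also holds the F score of edgeR's test and its p-value and adjusted p-value. The order of genotypes in the comparison's name was taken to mean that a positive value is an increase in the SEP3Δtet lines. No value per library was used, so depth is unknown, no SD is given, and the p-values rest on whatever spread that fit saw between libraries.

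Benjamini-Hochberg adjustment recomputed over all rows matched the deposited adjusted p-values within 1.8e-15. Calls are an adjusted p under 0.05. Of 19777 loci 19756 were found in the TAIR10.1 RefSeq annotation, the source of all coordinates, lengths and sequences. Python 3.11.15, pandas 2.3.3 and Biopython 1.88 (global alignment of coding bases) were used, and the code for calls and adjustment was tested on simulated data.

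The members and lists were chosen with earlier results of these data known. Named are all members, the other ASK genes, up to 4 called genes with the smallest p per pathway list and up to 3 per marker list, CUL1, RBX1A and UFO. The same rule adds the 4 largest increases and 2 largest decreases among called F-box genes of at least 1 log2 CPM, and the called neighbours. Outside it, after values were seen, stand the 3 cullin family rows, the SKP1-interacting rows, the string CCGACTC, AT2G03150, AT1G75930, AT1G75940, CAND1, SGT1A, SGT1B, FKF1 and SEP3. With 1 value per gene, no gene could be named for a similar pattern over samples.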

Additional observations from a re-analysis of the deposited data

How the results depend on the processing

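Alternatives were an adjusted p of 0.01, Bonferroni adjustment, a log2 fold change of at least 1, genes of at least 1 log2 CPM adjusted anew, and recentring on genes of at least 4 log2 CPM (shift -0.04). Under each of them 4 members were higher and 0 lower, and the members' median was 4.14 after recentring. The members were chosen with these values known, and recentring kept the deposited p-values. Their unchanged count is therefore a description and no support. ASK family genes called higher numbered 6 to 8, with 0 lower. Higher F-box calls fell from 87 to 19 by Bonferroni and 31 at 1 log2 CPM or more, and the 3 lower ones to 0 at 0.01, by Bonferroni and with the minimum fold change. In the whole table higher calls fell from 2294 to 1482 at 0.01 and 481 by Bonferroni; lower calls fell from 1163 to 419 at 0.01, 14 by Bonferroni and 74 with the minimum fold change. These counts drop by construction of the stricter settings. Recentring kept the sign of 45 of 47 named genes and turned ASK2 to 0.011 and ASK18 to 0.017, neither of them called. No paired analysis was possible because the table has no value per library; for the same reason no line could be left out, and whether all 3 lines carry the increases is unknown.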
